A study of Mus musculus with 54 samples.

Results

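Gad1, Gad2, Slc32a1, Slc6a5, Pvalb, Pax2 and Tfap2b are 7 genes of inhibitory neurons, and their transcripts were followed in RNA-seq of whole mouse cerebellum. They were taken by name and not by their values, out of 19232 features measured at postnatal day 5 (P5), 19432 at P28 and 17827 at 9 weeks. All 7 were present, and passed the filter on low values, at each age. The study deleted genes of ribonucleotide removal from DNA and of the DNA damage response in the brain, as a cross of Rnaseh2b with Atm or p53. At P5 there were 4 Rnaseh2b/Atm, 4 Rnaseh2b/p53, 3 Rnaseh2b, 3 Atm, 3 p53 and 3 control libraries. At P28 there were 5 Rnaseh2b/Atm, 5 Rnaseh2b, 5 Atm and 5 control libraries, and at 9 weeks 7 Rnaseh2b and 7 control libraries. Each mutant label carries Nes-cre, a Cre recombinase driven by the nestin promoter, which is active in neural progenitors, so neurons and glia that arise from them are targeted and microglia, vessels and meninges are mostly not. Spelled in full, the mutant labels are RnaseH2B Nes-cre, Atm Nes-cre, p53 Nes-cre, RnaseH2B,Atm Nes-cre and RnaseH2B,p53 Nes-cre. The label Control does not say whether those mice carried Nes-cre. The molecule is labelled as poly-A RNA for P28 libraries and as total RNA for P5 and 9 weeks, although the protocol names a total RNA kit for all, so RNA type and age cannot be told apart between P28 and the others. The labels do not say that replicates were separate animals, so p-values measure the spread between these libraries, which may be technical.

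Inhibitory neurons release GABA or glycine onto chloride channels of the target cell. In the cerebellum they are Purkinje cells, which carry the output of the cortex, the basket and stellate interneurons of the molecular layer, the Golgi and Lugaro cells of the granular layer, and inhibitory neurons of the deep nuclei. Gad1 and Gad2 encode the enzymes that make GABA from glutamate. Slc32a1 encodes the vesicular transporter that loads GABA and glycine, and Slc6a5 the neuronal glycine transporter that marks glycinergic cells such as Golgi and deep nuclear neurons. Pvalb encodes the calcium buffer parvalbumin, found in Purkinje cells and molecular layer interneurons. Pax2 marks interneuron precursors and young interneurons, and Tfap2b encodes an AP-2 family transcription factor of the inhibitory lineage.

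The labels were checked on the deleted genes. Mean Rnaseh2b was 1.91 to 2.20 log2 CPM in the P5 groups labelled with its deletion, against 4.27 in control, 0.90 and 1.12 at P28, against 2.84 in control, and 2.45 at 9 weeks, against 3.47 in control. Mean Trp53 was 1.64 and 2.02 log2 CPM in the P5 p53 and Rnaseh2b/p53 groups, against 3.71 in control. Mean Atm was 4.05 log2 CPM in P28 Rnaseh2b/Atm libraries and 4.79 in those labelled Atm, against 4.83 in control, and at P5 it was 5.54 in Rnaseh2b/Atm and 5.58 in Atm, against 5.87 in control. Among the groups labelled with an Atm deletion, Atm was called lower against control in P28 Rnaseh2b/Atm (limma, adjusted p = 7.48e-09) and not in the others. At P28 it was also lower in Rnaseh2b/Atm than in Atm, by 0.73 ± 0.07 log2 (SE; limma, adjusted p = 1.41e-08). Its level therefore does not check the label of the Atm libraries. Whether a count over the whole gene shows this deletion was not tested. The Purkinje and granule neuron marker lists were expressed in every library of the labelled tissue, whole cerebellum. At P5, Atm replicate 1 and control replicate 2 stood apart, with a summed level of 8 granule neuron genes of 128 and 383 CPM, against 333 to 569 CPM in Rnaseh2b/Atm and 680 to 1175 CPM in the other P5 libraries. Their summed level of 10 midbrain genes was 228 and 196 CPM, against 47.8 to 176 CPM in the others. P5 results are therefore given with and without these libraries where they differ. Reads in genes were 48.2 to 95.1 M in the P5 libraries, apart from 711 M in Rnaseh2b/p53 replicate 3, and 24.1 to 89.7 M at P28. The depth at 9 weeks is unknown. The fewest recovered reads of any member in any library were 50 at P5 (Pax2) and 217 at P28 (also Pax2).

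In control cerebellum Pvalb had the highest level of the 7 at P28 and 9 weeks, but not at P5, on the length-scaled FPKM measure. Its mean was 8.98 ± 7.02 FPKM at P5 (SD, n = 3), 361 ± 9.78 FPKM at P28 (n = 5) and 332 ± 28.1 FPKM at 9 weeks (n = 7). Gad1 had a mean of 27.6 ± 1.73 FPKM at P5, 65.3 ± 1.22 FPKM at P28 and 48.04 ± 3.33 FPKM at 9 weeks. Gad2 had 16.7 ± 7.95, 21.3 ± 0.95 and 19.8 ± 2.01 FPKM at these ages, so of the pair of GABA-synthesising enzymes Gad1 had the higher level at each age. The vesicular transporter Slc32a1 had 17.4 ± 5.64 FPKM at P5, 57.4 ± 13.6 FPKM at P28 and 14.9 ± 2.66 FPKM at 9 weeks. The glycine transporter Slc6a5 was lower, at 2.43 ± 1.27 FPKM at P5, 5.93 ± 0.69 FPKM at P28 and 3.95 ± 1.34 FPKM at 9 weeks. Both transcription factors were also at the lower end. Tfap2b had 9.05 ± 0.96 FPKM at P5, 9.08 ± 1.13 FPKM at P28 and 4.44 ± 0.62 FPKM at 9 weeks, and Pax2 had 0.407 ± 0.177, 1.80 ± 0.283 and 0.281 ± 0.103 FPKM. Thus the order in P28 controls was Pvalb, Gad1, Slc32a1, Gad2, Tfap2b, Slc6a5 and Pax2, and in it only Gad1 and Slc32a1 overlapped between neighbours. At P5, Slc32a1 overlapped with Gad2, Gad2 with Tfap2b, and Tfap2b with Pvalb, and at 9 weeks Gad2 overlapped with Slc32a1 and Tfap2b with Slc6a5. All 7 genes had their highest control mean at P28, on both the log2 CPM and the FPKM scale. Since tables were normalized separately by age, and P28 alone is labelled as poly-A RNA, these are levels side by side and not tested differences. The 9-week FPKM were also shifted by the authors and are treated as a score, so levels and order at that age are less sure.

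**Figure D1:**
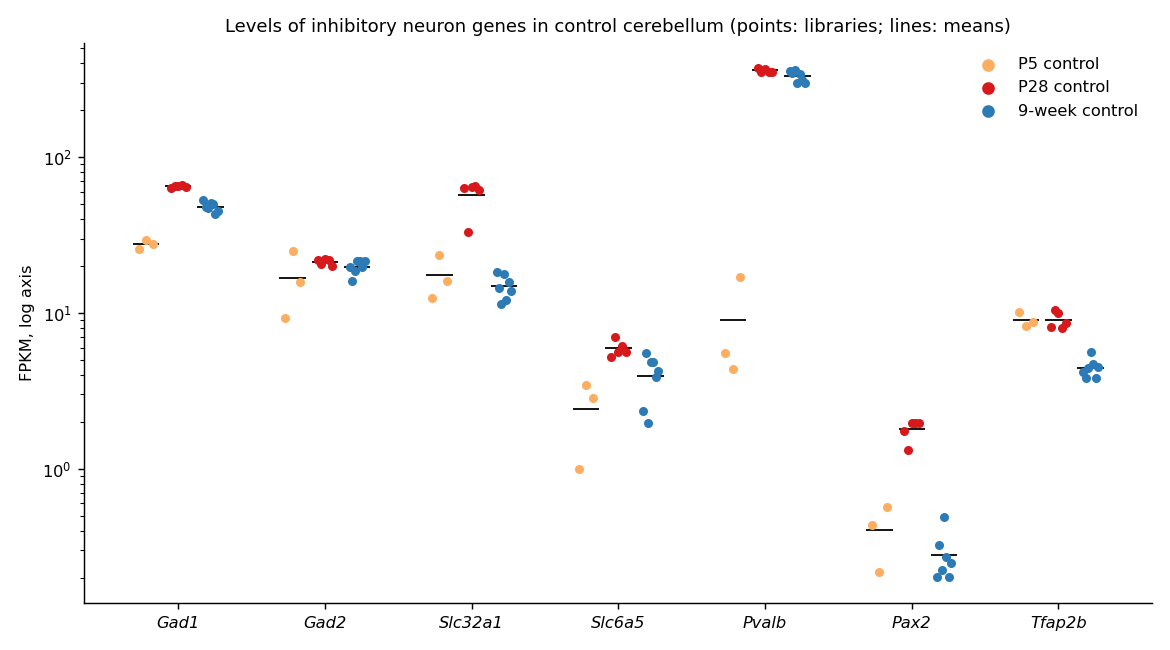
Levels of the 7 genes in control libraries at P5 (n = 3), P28 (n = 5) and 9 weeks (n = 7), in FPKM on a log axis, with points for libraries and lines for group means. Pvalb sits at 8.98 FPKM on average at P5 and at 361 and 332 FPKM at the later ages, while Gad2 has means between 16.7 and 21.3 FPKM at all ages. The 9-week FPKM were shifted by the authors and are treated as a score.

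The genes lie on 5 chromosomes, in build GRCm38.p6 at chr2:70561303-70602014 (Gad1), chr2:22621015-22693877 (Gad2), chr2:158607260-158615747 (Slc32a1), chr7:49906984-49963864 (Slc6a5), chr15:78191112-78206400 (Pvalb), chr19:44746601-44838269 (Pax2) and chr1:19208908-19238845 (Tfap2b), and all are protein-coding in the RefSeq annotation. Stretches in front of the annotated start of 5 of them are shown because Gad1, Gad2 and Slc6a5 rose together and Pvalb and Tfap2b fell in P28 Rnaseh2b/Atm cerebellum, and because Tfap2b encodes an AP-2 factor. They are RefSeq sequence of build GRCm38.p6, while the study's files used mm9, so the positions are those of GRCm38.p6 only. Each ends at the annotated start or where an exon begins, and capitals mark the AP-2 motif GCCNNNGGC, searched as written, which reads alike on both strands. The stretches of Gad1 (chr2:70561879-70562041, plus strand), Gad2 (chr2:22622077-22622204, plus strand), Slc6a5 (chr7:49910049-49910145, plus strand) and Tfap2b (chr1:19211804-19212053, plus strand) lie within the gene's annotated span but outside its exons, and that of Pvalb (chr15:78206401-78206650, minus strand) lies upstream of the gene.
Gad1: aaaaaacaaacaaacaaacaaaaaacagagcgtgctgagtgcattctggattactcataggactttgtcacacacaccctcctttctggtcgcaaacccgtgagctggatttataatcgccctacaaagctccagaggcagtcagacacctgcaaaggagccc
Gad2: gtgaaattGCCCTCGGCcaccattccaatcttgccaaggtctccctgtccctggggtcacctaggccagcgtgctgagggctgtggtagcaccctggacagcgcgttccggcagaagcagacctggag
Slc6a5: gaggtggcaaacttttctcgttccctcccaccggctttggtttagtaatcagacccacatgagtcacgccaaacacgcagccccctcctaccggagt
Pvalb: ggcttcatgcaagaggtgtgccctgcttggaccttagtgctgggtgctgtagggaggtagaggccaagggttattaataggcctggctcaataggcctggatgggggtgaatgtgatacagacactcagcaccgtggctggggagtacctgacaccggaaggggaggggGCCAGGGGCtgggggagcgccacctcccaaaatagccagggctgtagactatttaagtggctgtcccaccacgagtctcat
Tfap2b: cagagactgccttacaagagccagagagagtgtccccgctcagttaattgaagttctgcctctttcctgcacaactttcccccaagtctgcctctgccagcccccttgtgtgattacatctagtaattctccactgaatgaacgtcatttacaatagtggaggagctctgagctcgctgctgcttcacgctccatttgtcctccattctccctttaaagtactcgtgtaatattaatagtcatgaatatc
The motif was found in 4 of 11 windows of 250 bases before a start of the 7 genes, and 3 genes had it (Gad2, Pvalb and Pax2). Of all 32851 such windows 13.7% held it. Pvalb had it in 2 windows, so the windows are not independent. The motif is rich in G and C, and GC content was 58.4% to 71.6% in the windows that held it. In the other windows of the 7 genes it was 43.6% to 72.8%. Whether the shares differ was not tested. Some of the 11 windows are shown only in part or not at all. Those of Pax2, which also fell in P28 Rnaseh2b/Atm cerebellum, are not shown. The Gad2 window held 2 matches, 1 of them in the stretch shown. A match is a run of letters and not a shown binding site.

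At P28 the loss of Rnaseh2b together with Atm went with more transcript of the GABA-synthesising enzymes and the glycine transporter, and with less of parvalbumin and both lineage factors. Gad2 moved most, rising by 1.55 ± 0.10 on the log2 scale against control (SE of the limma fit, n = 5 and 5). Gad1 rose by 0.56 ± 0.04 and Slc6a5 by 0.90 ± 0.11. Tfap2b fell by 0.62 ± 0.12, Pax2 by 0.62 ± 0.20 and Pvalb by 0.23 ± 0.07. Slc32a1, which serves both transmitters, differed by −0.03 ± 0.26 and was not called. Of the 7 genes 3 rose and 3 fell at an adjusted p below 0.05, in a comparison where 63.6% of 16530 genes were called, 31.5% higher and 32.1% lower, so a count of 6 called does not set these genes apart from the rest. Their median was −0.03 log2, against −0.02 over all genes tested.

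Gad2 stood at 8.51, 8.63, 8.72, 8.25 and 8.55 log2 CPM in the 5 Rnaseh2b/Atm libraries, against 7.001, 6.95, 7.04, 7.02 and 6.89 log2 CPM in the 5 control libraries. Every Rnaseh2b/Atm library lay above every control library, with 63.9 ± 7.67 FPKM in Rnaseh2b/Atm and 21.3 ± 0.95 FPKM in control (SD; limma, adjusted p = 1.76e-10). Gad1, which makes most of the basal GABA pool, had 9.55, 9.56, 9.59, 9.42 and 9.57 log2 CPM in Rnaseh2b/Atm, against 8.92, 8.99, 8.99, 9.01 and 8.96 log2 CPM in control. Its groups did not overlap either (limma, adjusted p = 2.78e-09), and replicate 4 was the lowest Rnaseh2b/Atm library for both enzymes. Slc6a5 had 6.13, 6.49, 6.13, 6.49 and 6.26 log2 CPM in Rnaseh2b/Atm, against 5.20, 5.65, 5.33, 5.46 and 5.34 log2 CPM in control (limma, adjusted p = 9.94e-07). These groups were apart as well. The share of all genes whose groups did not overlap was not computed at P28 or 9 weeks. With 63.6% of all genes called in this comparison, groups that lie apart are not read as setting these genes apart from the rest.

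Among the genes that fell, Tfap2b had 5.23, 5.34, 5.57, 4.80 and 5.26 log2 CPM in Rnaseh2b/Atm, against 5.71, 6.09, 6.02, 5.69 and 5.81 log2 CPM in control (limma, adjusted p = 0.000167). Every mutant library lay below every control library, and replicate 4 was the lowest. Pvalb had 8.41, 8.51, 8.06, 8.32 and 8.36 log2 CPM in Rnaseh2b/Atm, against 8.60, 8.55, 8.60, 8.53 and 8.55 log2 CPM in control (limma, adjusted p = 0.00801). The groups were apart, yet the difference was small beside the level, 314 ± 33.1 FPKM in Rnaseh2b/Atm and 361 ± 9.78 FPKM in control (SD). Pax2 had 2.90, 2.67, 2.48, 3.18 and 2.59 log2 CPM in Rnaseh2b/Atm, against 3.33, 2.97, 3.53, 3.53 and 3.53 log2 CPM in control (limma, adjusted p = 0.0134), and replicate 4 of Rnaseh2b/Atm lay above replicate 2 of control.

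Slc32a1 varied more among libraries of a group than between groups. It had 7.62, 6.64, 7.33, 7.30 and 7.49 log2 CPM in Rnaseh2b/Atm, against 7.47, 6.56, 7.51, 7.52 and 7.45 log2 CPM in control. A low library occurred in both groups, replicate 2 in each, and the interval of the difference ran from −0.56 to 0.51 log2. In the Rnaseh2b, Atm and control groups the library lowest in Slc32a1 was also the lowest in Pax2.

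**Figure D2:**
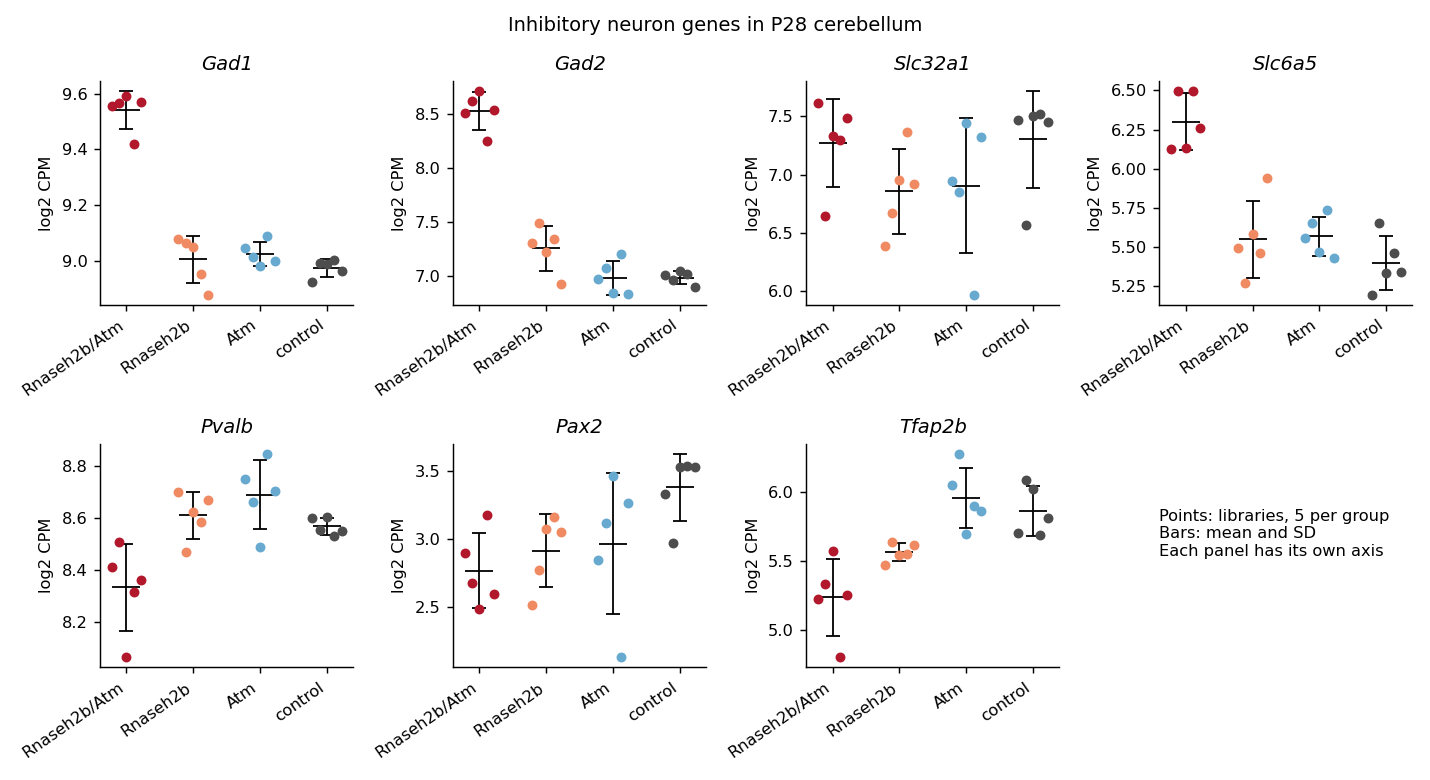
Log2 CPM of the 7 genes in each P28 library, with the Rnaseh2b/Atm, Rnaseh2b, Atm and control groups in that order along each axis (n = 5 each), points for libraries and bars for mean and SD. Rnaseh2b/Atm libraries lie above all others for Gad1, Gad2 and Slc6a5, while single low libraries widen the Slc32a1 panel.

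The compound mutant was also set against each of its single mutants, which asks what the second deletion adds if the labels hold. Against Atm, Gad1 was higher by 0.51 ± 0.04 (limma, adjusted p = 8.9e-09), Gad2 by 1.55 ± 0.10 (adjusted p = 1.73e-10) and Slc6a5 by 0.73 ± 0.11 log2 (adjusted p = 1.25e-05). Pvalb fell by 0.36 ± 0.07 (adjusted p = 0.00026) and Tfap2b by 0.72 ± 0.12 log2 (adjusted p = 3.59e-05), while 61% of all genes were called, 30% higher and 31% lower. Pax2 (−0.20 ± 0.20) and Slc32a1 (0.37 ± 0.26) were not called. Against Rnaseh2b, where 49.5% of all genes were called, 24.9% higher and 24.6% lower, Gad1 rose by 0.53 ± 0.04, Gad2 by 1.28 ± 0.10 and Slc6a5 by 0.75 ± 0.11, and Pvalb fell by 0.28 ± 0.07 log2 (limma, adjusted p of 1.57e-08, 5.6e-09, 1.74e-05 and 0.00343). Tfap2b fell by 0.33 ± 0.12 log2 (limma, adjusted p = 0.0297), a call that was lost without Rnaseh2b/Atm replicate 4 (−0.22 log2, adjusted p = 0.1005), without Rnaseh2b/Atm replicate 1 (−0.32 log2, adjusted p = 0.0502) and without Rnaseh2b replicate 2 or 5 (−0.31 log2 each, adjusted p of 0.0606 and 0.0582).

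The single mutants had smaller differences at this age. Gad1 lay between 8.88 and 9.08 log2 CPM in Rnaseh2b and between 8.98 and 9.09 in Atm, against 8.92 to 9.01 in control, and Slc6a5 between 5.27 and 5.94 in Rnaseh2b and between 5.43 and 5.73 in Atm, against 5.20 to 5.65 log2 CPM in control. In Rnaseh2b against control 0 of 7 genes were called by limma, and 0 by voom on recovered reads, with 5.21% of all genes called and 4291 genes, 3 of these 7 among them, at an unadjusted p below 0.05. Tfap2b had 5.48, 5.64, 5.55, 5.55 and 5.62 log2 CPM in Rnaseh2b, all below the 5.69 to 6.09 log2 CPM of control (−0.30 ± 0.12 log2, limma, adjusted p = 0.133). Gad2 had 7.30, 7.49, 7.22, 7.34 and 6.92 log2 CPM in Rnaseh2b (0.27 ± 0.10 log2 against control, adjusted p = 0.0953), and without replicate 5, the lowest, it was called (adjusted p = 0.0233). Pax2 was −0.47 ± 0.20 log2 against control (adjusted p = 0.163). With only the Rnaseh2b and control libraries in the fit, Tfap2b was called (adjusted p = 0.0434). In libraries labelled Atm against control 0 of 7 were called by limma and 0 by voom, with 1.86% of all genes called and 2832 genes, none of these 7, at an unadjusted p below 0.05. Their fold changes ran from −0.42 ± 0.20 log2 for Pax2 to 0.17 ± 0.11 for Slc6a5, and Gad2 differed by 0.00 ± 0.10.

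Whether the effect of Rnaseh2b loss differed between the control background and the background labelled Atm was tested as an interaction. It was larger on the Atm background for Gad2, by 1.28 ± 0.14 log2 (limma, adjusted p = 1.72e-06), Gad1, by 0.48 ± 0.06 (adjusted p = 1.08e-05), and Slc6a5, by 0.58 ± 0.16 (adjusted p = 0.007). For Pvalb the term was −0.40 ± 0.10 log2 (adjusted p = 0.00456). Of all genes 37.7% had a called term, with 18.7% of all genes above 0 and 19% below. Those of Tfap2b (−0.42 ± 0.17, adjusted p = 0.0572), Slc32a1 (0.81 ± 0.36, adjusted p = 0.0855) and Pax2 (0.27 ± 0.29, adjusted p = 0.502) were not called. Slc32a1 was called without Rnaseh2b/Atm replicate 2, Rnaseh2b replicate 4, Atm replicate 3 or control replicate 2, and Tfap2b without Rnaseh2b/Atm replicate 3, Atm replicate 3 or control replicate 2 or 3, so both lie near the threshold.

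**Figure D3:**
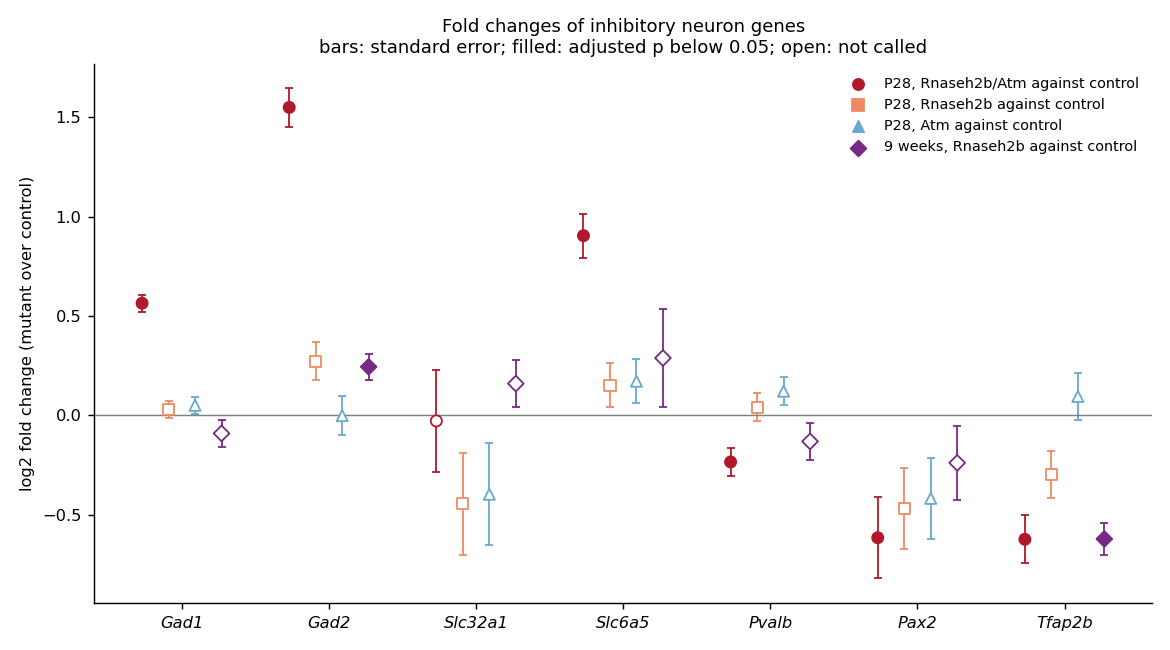
Log2 fold changes of mutant over control for the 7 genes at P28 (Rnaseh2b/Atm, Rnaseh2b and Atm, n = 5 each against 5) and 9 weeks (Rnaseh2b, n = 7 against 7), with bars for the standard error and filled symbols for an adjusted p below 0.05. Gad2 stands at 1.55 in P28 Rnaseh2b/Atm and at 0.24 in 9-week Rnaseh2b, and Tfap2b at −0.62 in both.

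Other genes of inhibitory transmission moved in both directions in P28 Rnaseh2b/Atm against control, where 63.6% of all genes were called, 31.5% higher and 32.1% lower. Counts near that share do not set a list apart. Of 14 genes that handle GABA and glycine 8 rose, 3 fell and 3 were not called, with a median of 0.34 log2 against −0.02 over all genes. Those with the smallest adjusted p were Abat, the enzyme that breaks GABA down (0.69 ± 0.04 log2), Glra2 (1.57 ± 0.16) and Glrb (0.47 ± 0.06), subunits of the glycine receptor, and Slc6a11, a GABA transporter of astrocytes (2.31 ± 0.26). Of 11 inhibitory lineage factors 7 were tested, 3 rose and 2 fell, with a median of 0.15 log2. Tfap2a, the AP-2 relative of Tfap2b, fell by 1.39 ± 0.10, while Gata2 (0.90 ± 0.15) and Gata3 (4.54 ± 1.01, with 271 to 898 reads per library in Rnaseh2b/Atm and 4 to 107 in control), factors of GABAergic neurons in midbrain and brainstem, and Kirrel2, an adhesion protein, (1.23 ± 0.21) rose. Of 12 markers of molecular layer interneurons and Golgi cells 7 fell, 2 rose and 3 were not called, with a median of −0.54 log2. Kcna2, a potassium channel of basket cell terminals, fell by 1.84 ± 0.21, the sorting receptor Sorcs3 by 1.24 ± 0.14 and the kinase Prkcd by 1.08 ± 0.06, and Lgi2, a secreted synaptic protein, rose by 1.32 ± 0.07 log2. All of these calls were by limma with adjusted p below 0.05.

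In P28 Rnaseh2b against control, where 5.21% of all genes were called, the GABA and glycine list had 1 gene called higher, Glrb (0.20 log2), and 1 called lower. Of the lineage factors Tfap2a fell (−0.63 ± 0.10 log2). Of the interneuron and Golgi markers 4 of 12 fell, the neuropeptide Npy (−0.91), Sorcs3 (−0.62), the receptor phosphatase Ptprk (−0.34) and Prkcd (−0.33 log2). In libraries labelled Atm against control, where 1.86% of all genes were called, 0 genes of the 3 lists were called by limma.

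Markers of other cells moved with these changes in P28 Rnaseh2b/Atm. The counts below stand beside a share of 63.6% of all genes called against control, 31.5% higher and 32.1% lower. All 8 granule neuron genes fell (median −1.69 log2), with a summed level of 1560 to 3175 CPM in Rnaseh2b/Atm, 5131 to 6238 CPM in Rnaseh2b, 6267 to 7179 CPM in Atm and 6212 to 6996 CPM in control libraries. Of 10 Purkinje cell genes 6 rose, among them Calb1, a calcium buffer (0.41 ± 0.09), and Foxp2, a transcription factor (1.65 ± 0.18), 0 fell, and Pcp2 (−0.14 ± 0.11) and Car8 (0.00 ± 0.10 log2), which Purkinje cells express at high levels, were not called. Of 8 midbrain genes tested out of 10 listed, 7 rose and Barhl2 fell. Th, an enzyme of catecholamine synthesis, had 21738 to 38661 recovered reads per library in Rnaseh2b/Atm and 194 to 237 in control (7.10 ± 0.23 log2), and Sox14, a factor of midbrain GABAergic neurons, had 138 to 547 reads in Rnaseh2b/Atm and 4 to 67 in control. The summed level of the 8 was 576 to 720 CPM in Rnaseh2b/Atm, 75.8 to 113 CPM in Rnaseh2b, 55.4 to 83.7 CPM in Atm and 66.9 to 97.2 CPM in control, and none of the 8 was at 0 reads in any library. Th made up most of the sum in Rnaseh2b/Atm, and without it the other 7 summed to 109 to 160 CPM in Rnaseh2b/Atm, 72.6 to 108 CPM in Rnaseh2b, 53.4 to 80.9 CPM in Atm and 63.7 to 91.02 CPM in control. Of 5 genes of excitatory nuclear and unipolar brush neurons 4 were tested and 3 rose, with a summed level of 237 to 359 CPM in Rnaseh2b/Atm and 51.03 to 96.5 CPM in control. All 7 meningeal genes (median 1.37 log2) and all 7 microglial genes (median 0.79 log2) rose. Of 7 oligodendrocyte genes 5 fell and 1 rose, with a summed level of 2760 to 8189 CPM in Rnaseh2b/Atm and 7918 to 8651 CPM in control. Of 4 skeletal muscle genes tested 2 rose and 0 fell, with a summed level of 32.0 to 47.6 CPM for 6 genes in Rnaseh2b/Atm and 5.96 to 15.4 CPM in control. Choroid plexus genes, of which 1 of 8 rose, summed to 323 to 3060 CPM in Rnaseh2b/Atm and 29.5 to 636 CPM in control. Of 11 medulla and pons genes only 1 was measured at P28, too few to read the list. It had 0.59 to 1.05 CPM in Rnaseh2b/Atm, 2.49 to 6.07 CPM in Rnaseh2b, 0.74 to 8.99 CPM in Atm and 4.73 to 7.60 CPM in control. CPM are relative to all reads of a library, and in whole tissue fewer cells of a type and less RNA per cell cannot be told apart. The part of these markers in the results for the 7 genes was not tested.

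At 9 weeks Rnaseh2b cerebellum had less Tfap2b and slightly more Gad2 than control. Tfap2b fell by 0.62 ± 0.08 log2 (limma, adjusted p = 0.000267, n = 7 and 7) and Gad2 rose by 0.24 ± 0.07 (adjusted p = 0.0179). The other 5 genes were not called, and of all genes tested 20.2% were called, 10.6% higher and 9.57% lower. Tfap2b had 3.99, 4.09 and 4.37 log2 CPM as its lowest, median and highest value in Rnaseh2b, against 4.55, 4.76 and 5.05 log2 CPM in control. The groups did not overlap. Gad2 had 6.96, 7.04 and 7.34 log2 CPM in Rnaseh2b, against 6.59, 6.82 and 6.98 log2 CPM in control, so the lowest Rnaseh2b library lay within the control range.

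The 9-week libraries carried codes 11 to 16 (replicates 1 to 3 of each group) or 50 to 58 (replicates 4 to 7), and the deposited values had the difference between these sets taken out by the authors. Within codes 11 to 16 Gad2 was 7.19 ± 0.15 log2 CPM in Rnaseh2b and 6.73 ± 0.12 in control (SD, n = 3 each), and it was higher by 0.45 ± 0.10 log2 (limma, adjusted p = 0.0332). Within codes 50 to 58 it was 7.01 ± 0.03 log2 CPM in Rnaseh2b and 6.92 ± 0.07 in control (n = 4 each), a difference of 0.09 ± 0.06 log2 that was not called (adjusted p = 0.461). The Gad2 difference was thus called in codes 11 to 16 and not in codes 50 to 58, and whether the sets differ was not tested. With the replicate number as a block it was not called either (adjusted p = 0.0553). Tfap2b fell within both sets, by 0.53 ± 0.10 in codes 11 to 16 and by 0.69 ± 0.12 log2 in codes 50 to 58 (limma, adjusted p of 0.0223 and 0.034).

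**Figure D4:**
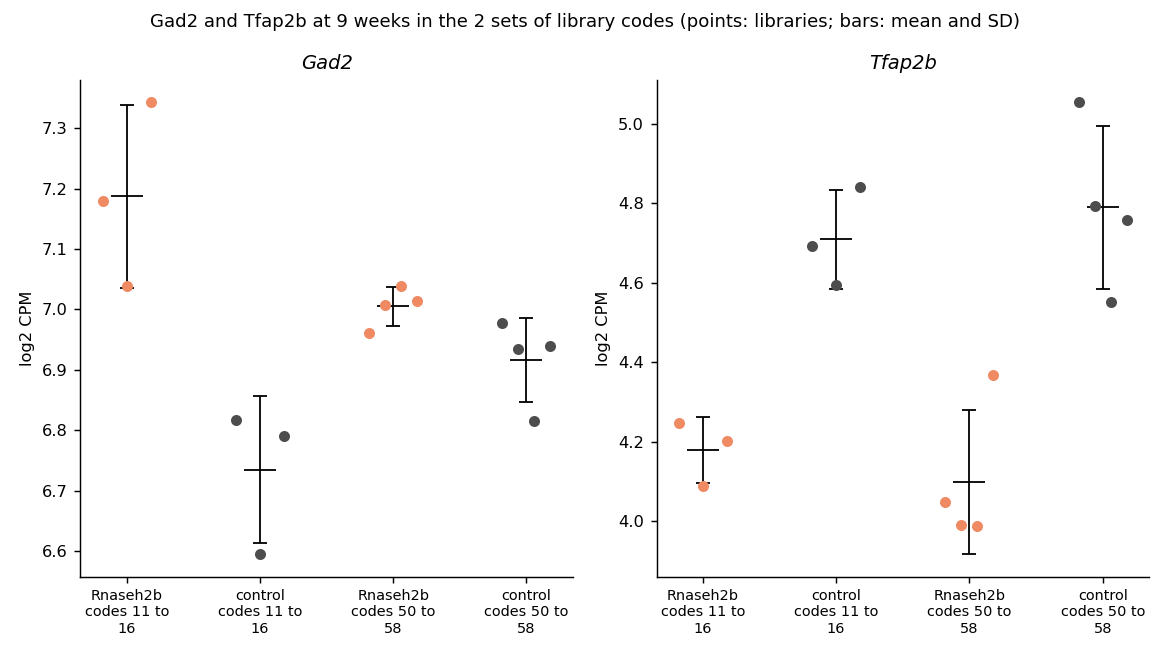
Log2 CPM of Gad2 and Tfap2b in 9-week libraries, split by library code (11 to 16, n = 3 per group, and 50 to 58, n = 4 per group), with Rnaseh2b left of control, points for libraries and bars for mean and SD. Gad2 differs by 0.45 log2 in codes 11 to 16 and by 0.09 in codes 50 to 58, while Tfap2b is lower in Rnaseh2b in both.

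For the genes not called at 9 weeks, Gad1 had 8.10, 8.41 and 8.60 log2 CPM (lowest, median and highest) in Rnaseh2b, against 8.35, 8.51 and 8.63 log2 CPM in control (−0.09 ± 0.07 log2). Slc6a5 ran from 4.09 to 5.79 log2 CPM in Rnaseh2b and from 4.09 to 5.33 in control, a difference of 0.29 ± 0.25 log2 whose interval, −0.23 to 0.81, is wide. Pvalb had a median of 8.24 log2 CPM in Rnaseh2b and 8.43 in control (−0.13 ± 0.09 log2). Slc32a1 differed by 0.16 ± 0.12 and Pax2 by −0.24 ± 0.19 log2, and all 5 overlapped between groups.

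Most of the listed molecular layer interneuron and Golgi markers were lower in Rnaseh2b at 9 weeks. In that comparison 20.2% of all genes were called, 10.6% higher and 9.57% lower. Of the 12 molecular layer interneuron and Golgi markers 7 fell and 2 rose (median −0.30 log2, against 0.00 over all genes). The falls included Sorcs3 (−0.71 ± 0.10), Lypd6, a modulator of nicotinic receptors, (−0.63 ± 0.08), Prkcd (−0.53 ± 0.09) and Ptprk (−0.34 ± 0.05 log2). Of 14 GABA and glycine genes 5 rose and 2 fell (median 0.09), with Slc6a11 (0.80 ± 0.13), Glra2 (0.73 ± 0.13) and the glial glycine transporter Slc6a9 (0.39 ± 0.07 log2) among those that rose. Of 5 lineage factors tested Kirrel2 rose (0.69 ± 0.17) and Tfap2a fell (−0.96 ± 0.24 log2). Beside these, 5 of 8 granule neuron genes fell, with a summed level of 1812 to 2828 CPM in Rnaseh2b and 3000 to 3794 CPM in control, 2 of 10 Purkinje genes rose (6137 to 9751 CPM in Rnaseh2b and 6198 to 8056 CPM in control), and 6 of 7 microglial genes rose (100.3 to 139 CPM in Rnaseh2b and 78.6 to 93.2 CPM in control). Of 4 genes tested of excitatory nuclear and unipolar brush neurons 3 rose, with a summed level of 139 to 194 CPM in Rnaseh2b and 76.1 to 128 CPM in control, and of 6 midbrain genes tested 3 rose (56.8 to 73.1 CPM in Rnaseh2b and 46.5 to 55.2 CPM in control). Of 7 oligodendrocyte genes 5 rose (2919 to 4948 CPM in Rnaseh2b and 2417 to 3284 CPM in control). Their part in the results was not tested.

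At P5, when interneurons are still being added and migrate through the white matter, most differences of the 7 genes between genotypes did not pass the test. Groups held 3 or 4 libraries and some intervals were wide, as for Slc6a5 in Rnaseh2b against control (−0.15 to 3.05 log2). A missing call therefore does not show that a gene was unchanged. The comparison that passed the test was Gad1 in Rnaseh2b/Atm against Rnaseh2b. Gad1 had 7.53, 7.40, 7.74 and 7.65 log2 CPM in the 4 Rnaseh2b/Atm libraries, against 7.07, 6.98 and 6.92 log2 CPM in the 3 Rnaseh2b libraries, higher by 0.59 ± 0.09 log2 (limma, adjusted p = 0.00398). It was the single called gene of the 7, with 2.04% of all genes called and 1.38% called higher. The summed levels of several marker lists were also apart between these groups. Purkinje genes summed to 1664 to 2453 CPM in Rnaseh2b/Atm and 1323 to 1554 CPM in Rnaseh2b, with 2 of 10 called higher, and microglial genes to 140 to 159 CPM in Rnaseh2b/Atm and 106 to 118 CPM in Rnaseh2b, with 4 of 7 called higher. Granule neuron genes summed to 333 to 569 CPM in Rnaseh2b/Atm and 680 to 864 CPM in Rnaseh2b, and granule progenitor genes to 367 to 553 CPM in Rnaseh2b/Atm and 753 to 1039 CPM in Rnaseh2b, with 0 of either list called by limma. Their part in the Gad1 difference was not tested. By order of its means, Gad1 was highest in Rnaseh2b/Atm (7.58), followed by Atm (7.44), control (7.33), Rnaseh2b/p53 (7.29), p53 (7.26) and Rnaseh2b (6.99 log2 CPM), and only the last did not overlap with its neighbour.

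Against control, 0 of 7 genes were called at P5 in any mutant group by limma, nor by voom on recovered reads. The share of all genes called was 9.86% in Rnaseh2b/Atm, 0.428% in Rnaseh2b/p53, 0.681% in Rnaseh2b, 0% in Atm and 0.175% in p53, and the number at an unadjusted p below 0.05 was 4327 in Rnaseh2b/Atm, 1316 in Rnaseh2b/p53, 2043 in Rnaseh2b, 435 in Atm and 913 in p53. At that unadjusted level lay Gad1 in Rnaseh2b/Atm (0.25 ± 0.09 log2, adjusted p = 0.0873) and Gad1 (−0.34 ± 0.10, adjusted p = 0.121) and Tfap2b (−0.91 ± 0.33, adjusted p = 0.238) in Rnaseh2b, and no gene of the 7 in the other groups. In Rnaseh2b against control 3 of the 7 genes did not overlap between groups, and neither did 12.1% of all genes tested. These were Gad1, at 7.20, 7.48 and 7.31 log2 CPM in control, Slc6a5 and Tfap2b. The Gad1 difference in Rnaseh2b/Atm was called without control replicate 2 (adjusted p = 0.025), and without control replicate 2 and Atm replicate 1 both Gad1 (0.32 ± 0.09 log2, adjusted p = 0.00965) and Slc32a1 (0.66 ± 0.18 log2, adjusted p = 0.0109) were called.

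Slc6a5 and Tfap2b moved in opposite directions from library to library at P5. Slc6a5 had 5.28, 5.46, 2.35 and 2.73 log2 CPM in Rnaseh2b/Atm, and 4.29, 5.79 and 4.86 in Rnaseh2b, against 2.39, 4.28 and 3.92 in control. Tfap2b had 4.67, 4.24, 5.68 and 5.87 log2 CPM in the same Rnaseh2b/Atm libraries, and 5.17, 4.26 and 4.23 in Rnaseh2b, against 5.58, 5.39 and 5.41 in control. Replicates 1 and 2 of Rnaseh2b/Atm and all 3 Rnaseh2b libraries had the highest Slc6a5 and the lowest Tfap2b of all 20 P5 libraries, while Rnaseh2b/Atm replicates 3 and 4 had Slc6a5 below at least 2 of the 3 controls and Tfap2b above all 3. The Pearson correlation of the genes was −0.85 over these 20 libraries, which share a table, its normalization and their groups.

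The same libraries were high in genes of medulla and pons. The summed level of 11 such genes, mostly Hox genes that the cerebellum itself does not normally express, was 38.2, 43.9, 2.66 and 4.07 CPM in Rnaseh2b/Atm, 7.72, 5.77, 11.6 and 15.5 CPM in Rnaseh2b/p53, 26.8, 61.1 and 20.5 CPM in Rnaseh2b, 9.20, 5.97 and 8.36 CPM in Atm, 4.20, 7.51 and 13.02 CPM in p53, and 3.42, 10.8 and 19.2 CPM in control. The mean log2 CPM of the listed genes past the filter on low values then served as a covariate. Summed levels did not overlap between Rnaseh2b and control, so list and genotype cannot be told apart in this fit. With the covariate the Slc6a5 difference of Rnaseh2b against control was 0.29 ± 0.46 log2, against 1.45 ± 0.76 without it. That of Tfap2b was −0.60 ± 0.32, against −0.91 ± 0.33. None of these was called.

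**Figure D5:**
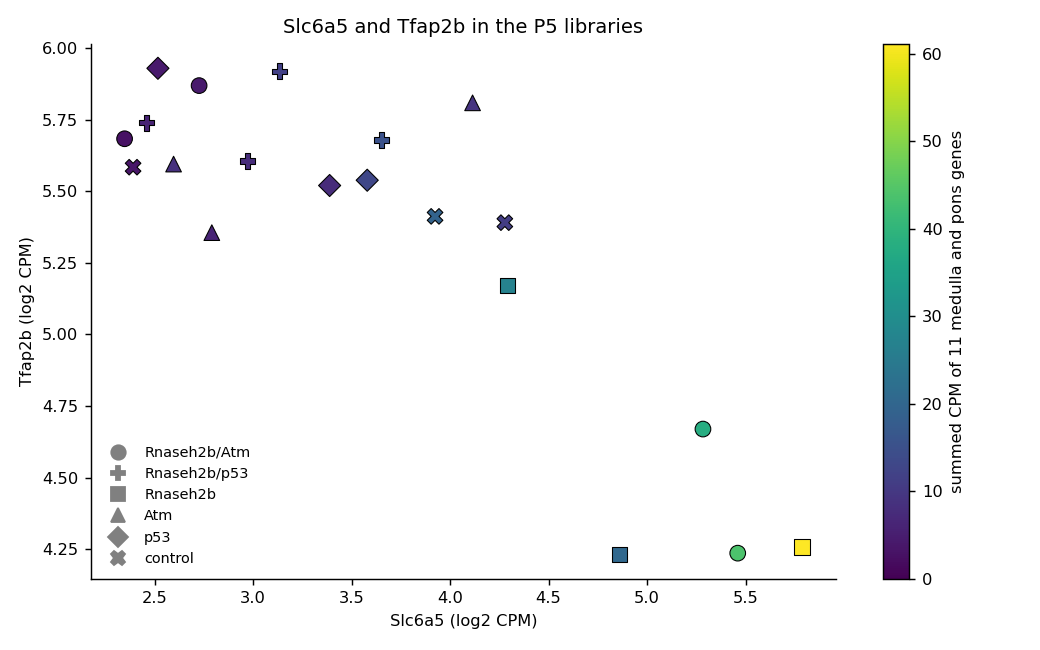
Slc6a5 against Tfap2b in the 20 P5 libraries, in log2 CPM, with symbols for genotype and colour for the summed CPM of 11 medulla and pons genes. The 5 libraries at the lower right, 3 Rnaseh2b and 2 Rnaseh2b/Atm, have the highest summed levels, 20.5 to 61.1 CPM.

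For the p53 cross at P5, Rnaseh2b/p53 was set against each of its single mutants. Whether removal of p53 alters what Rnaseh2b loss does would need an interaction, which was not tested. In Rnaseh2b/p53 against Rnaseh2b 0 of 7 genes were called by limma and 0 by voom, where 3.02% of all genes were called and 2885 genes, 3 of these among them, had an unadjusted p below 0.05. These 3 did not overlap between groups, and neither did 22.9% of all genes tested. Tfap2b had 5.61, 5.74, 5.92 and 5.68 log2 CPM in Rnaseh2b/p53, against 5.17, 4.26 and 4.23 log2 CPM in Rnaseh2b (1.18 ± 0.31 log2, limma, adjusted p = 0.0508). Gad1 had 7.20, 7.22, 7.31 and 7.42 log2 CPM in Rnaseh2b/p53 (0.30 ± 0.09 log2, adjusted p = 0.079), and Slc6a5 had 2.97, 2.46, 3.13 and 3.65 log2 CPM (−1.93 ± 0.71 log2, adjusted p = 0.145). Tfap2b was called without Rnaseh2b replicate 1 (limma, adjusted p = 0.0221), the Rnaseh2b library nearest to the Rnaseh2b/p53 libraries. Without control replicate 2 and Atm replicate 1 both Tfap2b (adjusted p = 0.0381) and Gad1 (adjusted p = 0.0321) were called. The medulla and pons list summed to 5.77 to 15.5 CPM in Rnaseh2b/p53 and 20.5 to 61.1 CPM in Rnaseh2b, without overlap. List and genotype therefore cannot be told apart in a fit that holds both. With the mean log2 CPM of the list as a covariate, Tfap2b differed by 0.90 ± 0.30 log2 and Slc6a5 by −0.89 ± 0.43. In Rnaseh2b/p53 against p53 0 of 7 were called by limma and 0 by voom, with 0.188% of all genes called and 607 genes, none of these 7, at an unadjusted p below 0.05.

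The remaining genes overlapped between most P5 groups. Pvalb, still low at this age, had 3.56, 3.89, 3.45 and 3.15 log2 CPM in Rnaseh2b/Atm, against 1.59, 1.87 and 3.29 log2 CPM in Atm and 2.09, 1.86 and 3.75 log2 CPM in control. It was higher by 1.26 ± 0.45 log2 in Rnaseh2b/Atm than in Atm, where 0 of 7 genes were called by limma and 0 by voom, 9.5% of all genes were called and 3426 genes had an unadjusted p below 0.05 (Pvalb adjusted p = 0.0953). Pvalb was called there without Atm replicate 3 (adjusted p = 0.0219) and with the replicate number as a block (adjusted p = 0.0328). Gad2, between 5.33 and 7.12 log2 CPM, and Slc32a1, between 4.71 and 5.93 log2 CPM, varied together over the P5 libraries (Pearson r = 0.92, n = 20 libraries). Both were high in Atm replicate 1 (7.12 and 5.93 log2 CPM) and control replicate 2 (6.88 and 5.72 log2 CPM), the libraries described above as low in granule neuron genes. Pax2 was low throughout, between −0.99 log2 CPM in Atm replicate 1 and 1.42 log2 CPM in Rnaseh2b/Atm replicate 1. Of the 3 lists, the lineage factor Lhx5 fell in Rnaseh2b/Atm against control (−0.56 ± 0.13 log2) and Prkcd rose (0.55 ± 0.11 log2, both limma adjusted p below 0.05), and Lhx5 rose in Rnaseh2b/p53 against Rnaseh2b (0.75 ± 0.13 log2).

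Correlations among the 7 genes differed between the tables of the 3 ages. The ages also differed in their genotypes, and P28 alone is labelled as poly-A RNA, so age cannot be told apart from these. Over the 20 P28 libraries, of all 4 genotypes, Pearson's r was 0.97 for Gad1 and Gad2, 0.84 for Gad1 and Slc6a5 and 0.82 for Gad2 and Slc6a5, and −0.73 and −0.71 for Gad2 with Pvalb and Tfap2b. The 5 Rnaseh2b/Atm libraries lay apart from the other 15 in Gad1, Gad2 and Slc6a5. Over the 14 libraries at 9 weeks r was −0.20 for Gad1 and Gad2 and −0.62 for Gad2 and Pvalb, and at P5 it was 0.52 for Gad1 and Gad2. The r of the 2 GABA-synthesising enzymes was thus highest over the P28 libraries. These correlations are descriptions over libraries that share groups, batches and depth.

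By Pearson correlation over all 54 libraries, each age scaled to itself, the genes of 14146 with the pattern most like Gad2 were Sash1 (r = 0.95), B630019K06Rik (0.95) and 6330439K17Rik (0.95). For Slc32a1 they were Rab3a (0.92), Cxx1a (0.91) and Tmem151a (0.91), for Tfap2b Frmd3 (0.90), D630045J12Rik (0.86) and Cacna1d (0.85), and for Slc6a5 Gca (0.84), Kcnj16 (0.84) and Epb4.1l3 (0.84). Gad1 was most like Csdc2 (0.80), Plk2 (0.78) and Ltk (0.78), Pvalb like Slc1a3 (0.78) and Tuba8 (0.77), and Pax2 like Nfic (0.74) and Dot1l (0.72). No member of the 7 was among the 3 genes nearest to another.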

How the data were processed

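RNA was prepared from whole cerebellum with TRIzol and a TruSeq stranded total RNA kit, per the labels' protocols. The submitters' processing notes name build mm9 and the tools HTSeq, STAR, BWA, limma and Trim Galore, with versions not given in the sources used here. The authors deposited log2 CPM per gene, which were used as they stand. The deposited FPKM values served for levels per gene length. At 9 weeks the deposited FPKM were shifted by the authors, hold 30976 values below 0 and are treated as a score, with these set to 0. Also at 9 weeks, the authors' log2 values have equal means in both sets of library codes for every gene (largest difference 3.12e-09), so their spread is slightly underestimated and depth is unknown. Whole reads were recovered from log2 CPM at P5 (99.98% or more of values per library within 0.01 of a whole number) and P28 (100%). The P5 table has 3 rows that name no gene, with 19.7% to 31.7% of the reads, which were left out. There were 0 columns without a sample.

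Genes with at least 1 CPM in 3 (P5), 5 (P28) or 7 (9 weeks) libraries were tested, 15421, 16530 and 15078 in all. Libraries of one age, every genotype included, entered a common fit by limma 3.58.1 with a variance trend under R 4.3.3, and p-values were adjusted over all genes by the Benjamini-Hochberg method. The threshold for a call was 0.05 on the adjusted p (two-sided), and rose and fell are used for called genes only. The fit was run on simulated data with independent noise, in which few genes were changed. That run does not check the fit where most genes are called, as in P28 Rnaseh2b/Atm against control. Alternatives were voom with TMM scaling on recovered reads, median scaling, log2(FPKM + 0.1) and log2(FPKM + 1), no filter, only the groups compared, a replicate block, leaving out each library, and at P5 marker lists as covariates. In P5 p53 against control each pair of equal replicate numbers deviated together (r of 0.26 to 0.55), and the block changed no call of these genes there. The 7 genes, the lists and the alternatives were chosen with earlier results of these data known. Of each list up to 4 called genes with the smallest adjusted p are named, and up to 3 genes most like each of the 7, apart from a few genes that are not reported here. The Purkinje and midbrain genes named were chosen after their values were seen. Python 3.11.15, pandas 2.3.3 and matplotlib 3.10.9 made tables and figures.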

Additional observations from a re-analysis of the deposited data

Results flagged for a closer look

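The effect of Rnaseh2b loss at P28 differed with the Atm background by the interaction test for Gad1 (0.48 log2), Gad2 (1.28), Slc6a5 (0.58) and Pvalb (−0.40), and these terms are described in the report. A sample far from the others of its group was seen for Gad1 in P28 Rnaseh2b/Atm, where replicate 4 had 9.42 log2 CPM, and for Slc32a1 in P28 control, where replicate 2 had 6.56 log2 CPM. Of the 56 groups examined, of 4, 5 or 7 libraries for 1 gene each, chance alone flags about 1 in 20. Without Gad1's low library, or any other single P28 library, the Gad1 call in Rnaseh2b/Atm against control held.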

How the results depend on the processing

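No gene difference with an unadjusted p below 0.05 in the main limma fit changed direction in any alternative run. Direction was not checked for the other differences. The 6 calls in P28 Rnaseh2b/Atm against control held in all of them, with the highest adjusted p at 0.0381 (Pax2). Counts of the 7 genes called did change. In P5 Rnaseh2b/Atm against control, 0 were called, but 1 with log2(FPKM + 0.1), 1 with log2(FPKM + 1), 1 with the midbrain list as a covariate (Gad1) and 2 without control replicate 2 and Atm replicate 1, and 0 to 2 when single libraries were left out. In P5 Rnaseh2b/Atm against Atm it was 0, but 1 with the replicate block (Pvalb), 1 with the midbrain covariate (Gad1, 0.33 log2) and 0 to 1 with single libraries left out. In P5 Rnaseh2b/p53 against Rnaseh2b it was 0, but 2 with only these groups in the fit (Tfap2b and Slc6a5), 2 without control replicate 2 and Atm replicate 1, and 0 to 1 with single libraries left out. In P28 Rnaseh2b against control it was 0, but 1 with only these groups in the fit and 0 to 1 with single libraries left out. At 9 weeks it was 2, but 1 with the replicate block and 1 in codes 50 to 58 alone, where Gad2 was not called. For the same gene differences, with an unadjusted p below 0.05 in the main fit, 628 comparisons with an alternative kept their side of the threshold. Of the rest, 23 gained a call and 6 lost it. The causes were not tested. In the other comparisons the replicate block changed the counts by at most 1, with 6 called in P28 Rnaseh2b/Atm against control as before and 5 in the interaction (Tfap2b added, adjusted p = 0.0349). Other than in P5 p53 against control, the replicate numbers did not pair the libraries throughout (at 9 weeks r of −0.55 to 0.09 and 0 of 7 best with their own number). Depth limits Pax2 most, with as few as 50 reads at P5.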
